A study of Mus musculus with 12 samples.

Results

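The genes described here build sterols and fatty acids. They are 33 of the 55401 genes listed in each count table of an RNA-seq study of mouse tumor-associated macrophages (TAMs), taken by symbol, and where a symbol stood on several rows the row with the most counts was used. They fall into 6 roles. Acly, Acat2 and Aacs supply acetyl-CoA or its activated derivatives to the pathways. Hmgcs1, Mvk, Pmvk, Mvd, Idi1, Fdps and Fdft1 lead from there through mevalonate to squalene. Sqle, Lss, Cyp51, Tm7sf2, Msmo1, Nsdhl, Hsd17b7, Ebp, Sc5d and Dhcr7 turn squalene into cholesterol. Insig1, Insig2, Srebf2, Scap and Stard4 sense or move sterols. Acaca, Acacb and Fasn make saturated fatty acids, and Scd1, Elovl5, Elovl6, Fads1 and Fads2 desaturate or elongate them. All 33 passed the filter on low counts in both comparisons.

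Cells make cholesterol from acetyl-CoA through mevalonate, and the transcription factor SREBP2, made from Srebf2, switches the enzymes on together. When sterols are scarce, SCAP carries SREBP2 from the endoplasmic reticulum to the Golgi, where it is cut and released, and when sterols are plentiful the INSIG proteins hold SCAP back. Fatty acid synthesis starts from the same acetyl-CoA, which acetyl-CoA carboxylase turns into malonyl-CoA and fatty acid synthase joins into palmitate. AMPK, the kinase deleted in this study, phosphorylates acetyl-CoA carboxylase and so slows fatty acid synthesis at the level of the protein, and macrophages use both pathways when they proliferate, take up debris or respond to inflammation.

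TAMs were sorted from subcutaneous B16-F10 melanomas in mice that the study's methods give as 5 weeks old and on a C57BL/6 background. The AMPK-KO group (3 samples) came from AMPKfl/fl mice with Lyz2cre/cre, in which Cre is driven by the Lyz2 promoter of myeloid cells, and the WT group (3 samples) from AMPKfl/fl mice, so that both groups carried the floxed alleles. Both were collected 15 days after implantation. The genotype field spells the Cre locus of AMPK-KO replicates 2 and 3 as Lyz3 and Lyz4. The Early group (3 samples, day 8) and the Late group (3 samples, day 15) came from mice labelled WT. Nothing in the labels says whether a sample is 1 animal or a pool, so p-values measure only the spread between these samples. Library totals ran from 71019494 to 84470374 counts, and the members had between 69 and 19732 counts in a sample.

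The libraries were checked before the members were read. Prkaa1, which encodes the AMPK catalytic subunit named in the study, was read 4535, 4959 and 5165 times in WT and 3285, 3297 and 3467 times in AMPK-KO, in ascending order, which is a log2 fold change of -0.60 ± 0.07 (SE, n = 3 against 3, edgeR quasi-likelihood adjusted p = 2.3e-04). Its counts were summed over the whole gene, and reads from exons outside the deleted part are included. Lyz2, in whose locus the Cre is inserted, stood at 9.16 to 13.5 CPM (counts scaled to the size of the library with TMM factors) in the WT and AMPK-KO samples alike, against 1092 to 3009 in the other table. The controls, whose sample titles name AMPKfl/fl mice and no Cre, thus had as little Lyz2 as the AMPK-KO samples. The counts of 4 Y-linked genes came to 3435 to 4035 in the Early samples and to 0 to 4 in the Late samples, so the stage of the tumor and the sex of the mice cannot be told apart, and the 6 WT and AMPK-KO samples had 9229 to 12183. The study's methods name female C57BL/6J mice, which the Early counts go against, and whether that word also covers the floxed mice is not clear from them. Csf1r, another macrophage marker, stood at 922 to 1344 CPM in all samples.

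Compared per kilobase of exon, the only scale on which levels of different genes can be set side by side, the members spanned a wide range in each of the 4 groups. A length was known for 32 of the 33 (not for Fdft1). Acly, which cleaves citrate to acetyl-CoA in the cytosol, ranked highest in each group, with 38.9 ± 0.37 CPM per kb in WT, 43.5 in AMPK-KO, 43.1 ± 2.0 in Early and 42.2 ± 0.75 in Late (mean ± SD, n = 3). Acacb, the carboxylase isoform of oxidative tissues, ranked lowest in each, at 0.180 in WT and 0.124 in AMPK-KO, and the ratio of the highest to the lowest level ran from 216 in WT to 351 in AMPK-KO. In WT, Ebp (19.3 CPM per kb), Elovl5 (18.1), Fads1 (18.1) and Srebf2 (17.0) followed Acly. The lowest levels above Acacb were those of Hsd17b7 (1.01), Elovl6 (1.07) and Lss (1.14). Of the 31 neighbouring pairs in the order of levels, 13 did not overlap in WT, 13 in AMPK-KO, 12 in Early and 10 in Late, and the other neighbours could not be told apart by their samples. The tables were scaled separately, so levels in WT and Early samples are not compared by a test.

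**Figure D1:**
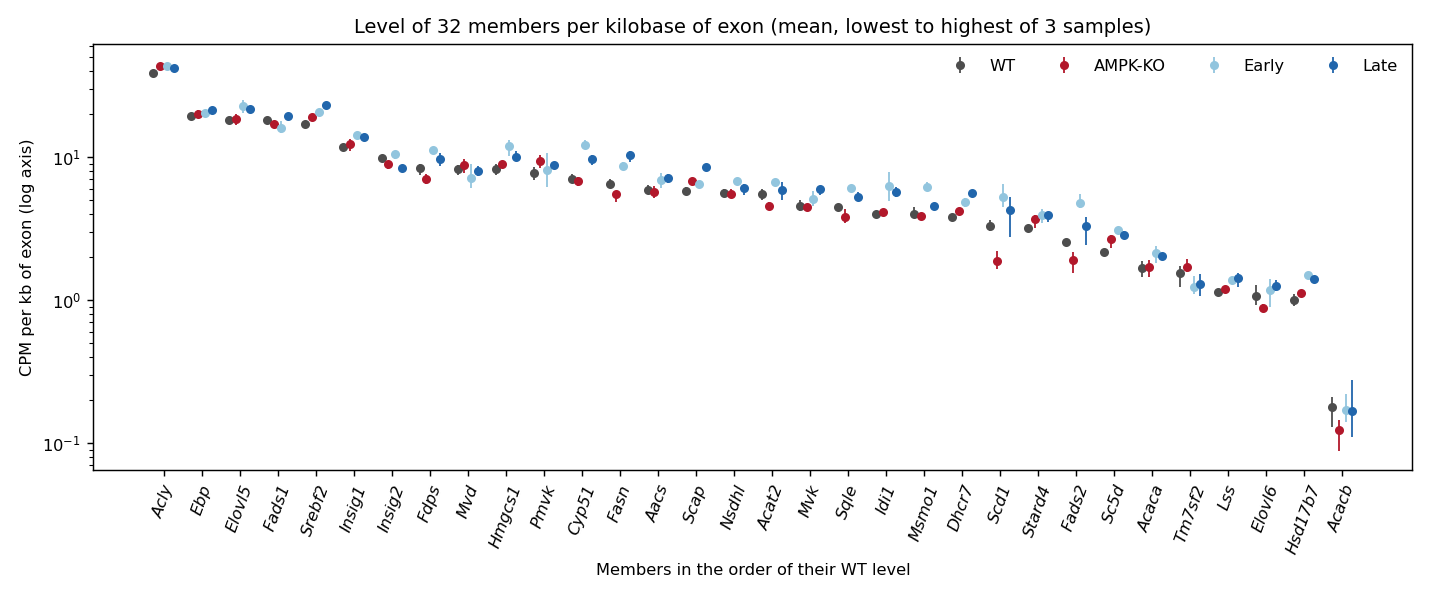
Level of 32 members in the 4 groups, in CPM per kilobase of exon on a log axis, with members in the order of their WT level. Points are means of 3 samples and bars run from the lowest to the highest sample. Acly stands highest and Acacb lowest in every group.

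Promoters are shown for 5 members that were called below, since sterol and fatty acid genes are known to be switched on through short elements close to the start. The sequences are those of RefSeq on GRCm38.p6, trimmed to the bases before the start of the gene in both RefSeq and GENCODE M21, and run 5′ to 3′ on the strand of the gene. Capitals mark CCAAT on either strand, the box bound by NF-Y, a partner of SREBP. The windows lie at chr11:100528001-100528250 for Acly (minus strand), chr11:120824548-120824797 for Fasn (minus), chr5:4104747-4104947 for Cyp51 (minus), chr15:82147019-82147180 for Srebf2 (plus) and chr9:110333038-110333287 for Scap (plus).
Acly: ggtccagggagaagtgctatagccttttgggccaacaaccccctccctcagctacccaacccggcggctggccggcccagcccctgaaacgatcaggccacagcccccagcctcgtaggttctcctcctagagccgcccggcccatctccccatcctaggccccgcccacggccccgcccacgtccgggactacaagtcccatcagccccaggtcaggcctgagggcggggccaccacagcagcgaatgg
Fasn: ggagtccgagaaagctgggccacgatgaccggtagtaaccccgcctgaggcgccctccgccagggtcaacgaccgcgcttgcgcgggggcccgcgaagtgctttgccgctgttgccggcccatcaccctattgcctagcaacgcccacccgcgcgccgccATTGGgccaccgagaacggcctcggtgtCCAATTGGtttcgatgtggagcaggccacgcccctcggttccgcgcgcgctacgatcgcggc
Cyp51: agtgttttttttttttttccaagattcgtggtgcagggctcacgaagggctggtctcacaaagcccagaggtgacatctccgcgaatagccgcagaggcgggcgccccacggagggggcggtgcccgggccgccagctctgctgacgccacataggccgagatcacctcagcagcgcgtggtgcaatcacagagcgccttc
Srebf2: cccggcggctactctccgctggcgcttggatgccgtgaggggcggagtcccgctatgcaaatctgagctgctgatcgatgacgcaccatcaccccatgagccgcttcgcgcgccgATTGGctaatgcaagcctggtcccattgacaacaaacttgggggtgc
Scap: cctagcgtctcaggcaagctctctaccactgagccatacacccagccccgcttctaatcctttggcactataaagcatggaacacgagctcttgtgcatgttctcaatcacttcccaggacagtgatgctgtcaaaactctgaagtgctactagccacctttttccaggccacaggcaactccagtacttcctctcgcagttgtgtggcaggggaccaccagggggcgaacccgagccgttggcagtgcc
Within these windows Fasn held 3 matches to CCAAT and Srebf2 held 1, and Acly, Cyp51 and Scap held none, though Cyp51 has 1 match in the bases trimmed off, 29 bases before its RefSeq start. GGGCGG, the GC box bound by Sp1, was matched 4 times in Acly and once each in Cyp51 and Srebf2, on either strand, and over its untrimmed 250 bases Srebf2 held 4. In the 250 bases before the RefSeq start, CCAAT was found in 20 of 33 member promoters and in 33.9% of all 32851 promoters. Counted by gene, with a match in any promoter enough, it was found for 20 of the 27 members with a promoter (74.1%). GGGCGG was found in 22 of the 33 (by gene, 20 of the 27, 74.1%) and in 32.7% of all promoters. TCACNCCAC, a strict form of the sterol regulatory element, was found in 1 of the 33, that of Hmgcs1 (by gene, 3.70%), and in 1.053% of all. The shares of all promoters are counted by promoter. No share by gene was computed over all genes, so the shares by gene have no like value beside them. The 250 bases of Msmo1 held 3 matches to CCAAT and 2 to GGGCGG but lie largely inside the gene as GENCODE draws it and are not printed. A match describes the letters and not binding.

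The study compared AMPK-KO with WT TAMs to see what the loss of AMPK changes in them. Among the sterol and fatty acid genes 3 were higher in AMPK-KO (Acly, Srebf2 and Scap) and 1 was lower (Scd1), at an adjusted p under 0.05 with edgeR's quasi-likelihood test over 17532 genes. That is 9.09% and 3.03% of the members, where 11.3% of all genes tested were called higher and 9.78% lower. Scd1 changed most, and the other 3 rose by 11.9% to 16.2%. None of the 33 passed an absolute log2 fold change of 1, which 3.34% of all genes did together with the adjusted p. The median log2 fold change of the members was 0.03 (all genes tested, -0.0037), and their median absolute log2 fold change was 0.15 against 0.22 over all genes.

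Scd1, a stearoyl-CoA desaturase that makes monounsaturated fatty acids, lies at chr19:44394455-44407879 (GRCm38, minus strand). It stood at 17.7, 15.7 and 15.0 CPM in WT and at 10.9, 8.45 and 8.11 CPM in AMPK-KO replicates 1 to 3. Every AMPK-KO sample lay below every WT sample. The log2 fold change was -0.82 ± 0.13 (SE, edgeR adjusted p = 0.00132), and it was called in each of the 6 fits that left out 1 library, with values between -0.96 and -0.74. In the other table it stood at 21.9, 24.1 and 31.9 CPM in Early and 13.6, 22.6 and 25.96 in Late. There the groups overlapped, and the log2 fold change was -0.32 ± 0.22 (adjusted p = 0.418). Its close relative Scd2, read with the other lipogenic genes below, did not share the fall in AMPK-KO. Scd2 stood at 149, 130 and 135 CPM in WT and at 146, 143 and 138 in AMPK-KO. Those groups overlapped, with a log2 fold change of 0.04 ± 0.06 (adjusted p = 0.676).

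The other genes of desaturation and elongation mostly had negative log2 fold changes that did not pass the test. Counted with Scd1, 4 of the 5 had a negative log2 fold change. Together the 5, Scd1 included, summed to 187, 179 and 181 CPM over the WT samples and to 179, 165 and 162 over those of AMPK-KO. These sums, which hold the fall of Scd1, did not overlap, but without TMM factors they did (176 to 189.9 and 161 to 179 CPM). They do not show a fall of the other genes. Fads2, the delta-6 desaturase of polyunsaturated fatty acids, had 8.30, 8.02 and 8.75 CPM in WT and 7.17, 6.76 and 5.10 in AMPK-KO, without overlap and with a log2 fold change of -0.40 ± 0.14 (adjusted p = 0.0752). For Fads1, the delta-5 desaturase, the change was -0.09 ± 0.05 on the log2 scale (adjusted p = 0.296).

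In fatty acid synthesis proper no member was called. Fasn, the fatty acid synthase, had 76.9, 67.8 and 67.8 CPM in WT and 63.1, 63.8 and 53.3 in AMPK-KO. The groups did not overlap, and the log2 fold change was -0.24 ± 0.08 (adjusted p = 0.0668). DESeq2 called it at an adjusted p of 0.0369. The carboxylases Acaca, the main cytosolic form, and Acacb overlapped between the groups, and with 1.25 to 2.01 CPM in WT and 0.854 to 1.396 in AMPK-KO Acacb was also the most sparsely counted member.

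Acly, at chr11:100476353-100528000 on the minus strand, stood at 207, 203 and 205 CPM in WT and at 234, 239 and 216 in AMPK-KO. The groups did not overlap, and the log2 fold change was 0.16 ± 0.05 (adjusted p = 0.0467). The call was lost without each of WT replicates 1, 2 and 3 and AMPK-KO replicates 1 and 2 (adjusted p 0.0538, 0.103, 0.154, 0.149 and 0.195), with the value between 0.13 and 0.20. It was also lost with upper-quartile factors (0.0587) and with no filter on low counts (0.0964). Acat2, the cytosolic thiolase that joins acetyl-CoA units at the head of the mevalonate pathway, had 12.8, 15.2 and 14.5 CPM in WT and 11.05, 11.06 and 12.4 in AMPK-KO. These did not overlap, but the test was not passed (log2 fold change -0.30 ± 0.11, adjusted p = 0.0713), and reads of Acat2 may be shared with its close copy Acat3.

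Of the 5 sensing and transport genes, Srebf2 and Scap were called higher in AMPK-KO, and Insig1, Insig2 and Stard4 were not called (log2 fold change 0.08, -0.15 and 0.21, adjusted p = 0.551, 0.208 and 0.160). Srebf2, at chr15:82147181-82205379 on the plus strand, stood at 125, 124 and 118 CPM in WT and at 142, 141 and 132 in AMPK-KO. Scap, at chr9:110333288-110384950 on the plus strand, stood at 45.9, 41.2 and 43.1 CPM in WT and at 51.0, 52.4 and 47.9 in AMPK-KO. For both genes every AMPK-KO sample lay above every WT sample. The log2 fold changes were 0.18 ± 0.05 for Srebf2 (adjusted p = 0.0393) and 0.22 ± 0.07 for Scap (adjusted p = 0.0411). Without WT replicates 2 or 3 or AMPK-KO replicates 1 or 2 the adjusted p rose to 0.0654, 0.179, 0.143 and 0.146 for Srebf2 and to 0.126, 0.144, 0.127 and 0.164 for Scap. Both calls were also lost with no filter on low counts (0.0737 and 0.0821), and that of Srebf2 with upper-quartile factors (0.0532). The 5 sensing and transport genes summed to 256, 255 and 252 CPM over the WT samples and to 283, 288 and 265 over those of AMPK-KO, without overlap.

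Among the enzymes that carry out sterol synthesis, none of the 7 genes from mevalonate to squalene and none of the 10 from squalene to cholesterol was called, and their log2 fold changes ran from -0.26 to 0.31. The 7 summed to 143, 146 and 145 CPM over the WT samples and to 141, 149 and 152 over those of AMPK-KO. The 10 summed to 193, 199 and 201 CPM and to 200.4, 203 and 199.96. Both sums overlapped between the groups.

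Within these enzymes the members moved in different directions at an unadjusted p under 0.05. For Fdps, which makes farnesyl diphosphate, the log2 fold change came to -0.26 ± 0.09 (adjusted p = 0.0665) and for Sqle, the epoxidase that takes squalene into the sterol branch, to -0.23 ± 0.10 (adjusted p = 0.130). Pmvk, a kinase of the mevalonate arm, had 0.29 ± 0.11 (adjusted p = 0.0935) and Sc5d, a late desaturase of the sterol ring, 0.31 ± 0.11 (adjusted p = 0.0835). DESeq2 and the fit with the replicate number as a block called Fdps lower (adjusted p = 0.0458 and 0.0320), as did the fits without WT replicate 1 or AMPK-KO replicate 3 (0.0184 and 0.0499). Sqle was called lower without AMPK-KO replicate 2 (0.0498) and Sc5d higher without AMPK-KO replicate 3 (0.0285). Over all members 5 were higher and 6 lower at that level, 11 of 33 where 32.6% of all genes tested passed it. The groups did not overlap for 11 of the 33 (33.3%), 6 higher and 5 lower in AMPK-KO, where they did not overlap for 37.2% of all genes tested.

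**Figure D2:**
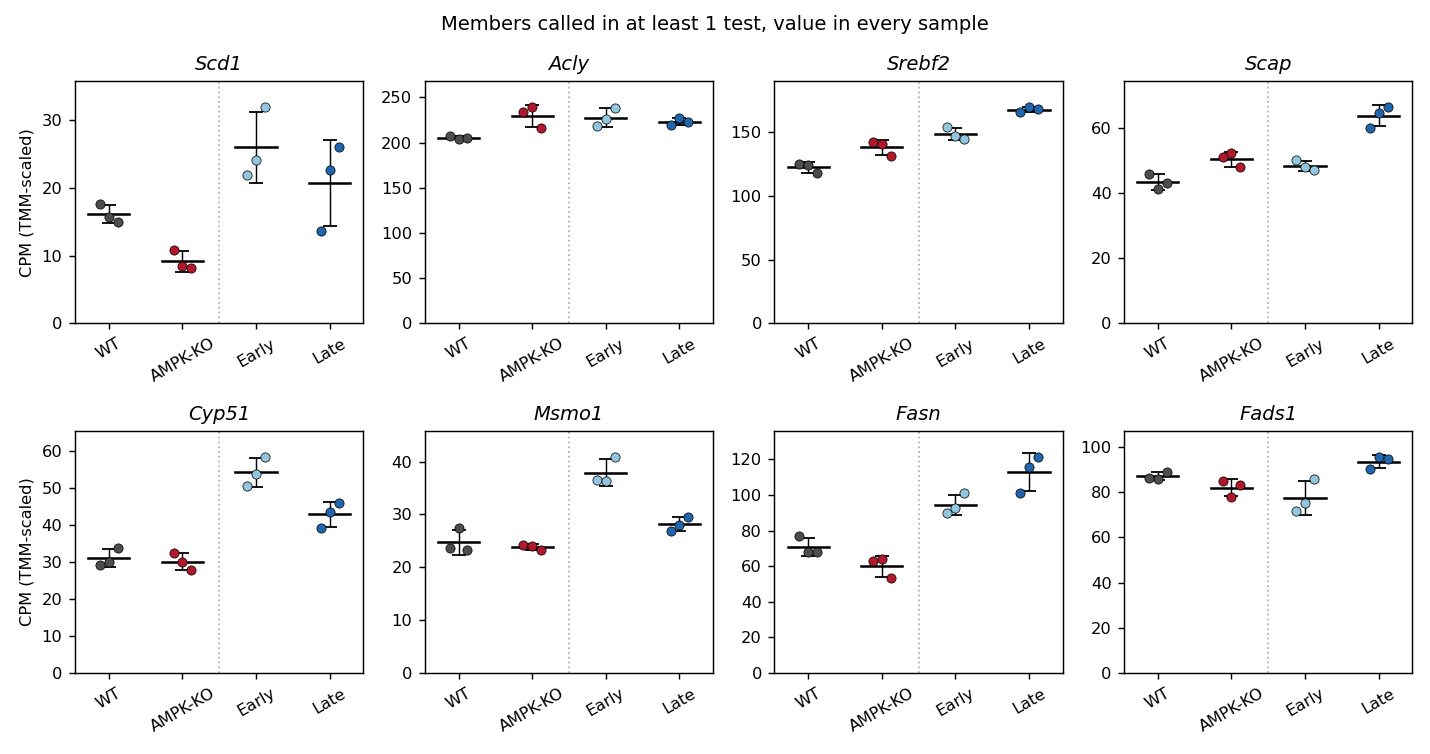
TMM-scaled CPM of the 8 members called in at least 1 test, 1 point per sample, in WT and AMPK-KO (left of the dotted line) and in Early and Late (right). Lines are means and bars 1 SD of 3 samples. Scd1 changes most between WT and AMPK-KO, where only Cyp51 and Msmo1 overlap. Early and Late overlap only for Scd1 and Acly, and of the others Cyp51, Msmo1 and Scap were called there.

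The Late against Early comparison asked how TAMs change as the tumor grows from day 8 to day 15. Of the sterol and fatty acid genes 1 was higher in Late (Scap) and 2 were lower (Cyp51 and Msmo1), out of 17630 genes tested. That is 3.03% and 6.06% of the members, against 4.31% of all genes called higher and 4.88% called lower. Msmo1 fell by 25.7%, Cyp51 fell by 21.02%, and Scap rose by 31.6%. No member passed an absolute log2 fold change of 1, as 1.87% of all genes did. The median log2 fold change of the members was -0.04 (all genes tested, 0.0027) and the median absolute one 0.15 against 0.23.

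Cyp51, the lanosterol demethylase, and Msmo1, a sterol methyl oxidase, both remove methyl groups from the sterol nucleus early in this part of the pathway. Cyp51, at chr5:4081145-4104746 on the minus strand, stood at 50.6, 53.6 and 58.4 CPM in Early and at 39.2, 43.4 and 45.8 in Late. Msmo1, at chr8:64718139-64733792 on the minus strand, stood at 36.6, 36.2 and 40.9 CPM in Early and at 26.9, 28.1 and 29.6 in Late. Every Late sample lay below every Early sample for both genes. The log2 fold changes were -0.34 ± 0.09 for Cyp51 (adjusted p = 0.0475) and -0.43 ± 0.09 for Msmo1 (adjusted p = 0.0187).

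Neither call held in every fit. Without Early replicates 2 or 3 or Late replicates 1, 2 or 3, the adjusted p of Cyp51 was 0.139, 0.0818, 0.175, 0.153 and 0.0963. That of Msmo1 was 0.0577 without Early replicate 2 and 0.0849, 0.0904 and 0.0625 without Late replicates 1, 2 and 3. With no filter on low counts the call of Cyp51 was lost as well (0.0969). In the other table Cyp51 stood at 29.3, 30.1 and 33.7 CPM in WT and 32.3, 30.1 and 27.8 in AMPK-KO, and Msmo1 at 23.6, 27.4 and 23.2 CPM in WT and 24.2, 24.1 and 23.2 in AMPK-KO. The groups overlapped there for both genes (adjusted p = 0.758 and 0.729). Cyp51 shares 3.76% of its exon bases with the opposite strand of Akap9, whose reads cannot be told apart if strand was not used in counting.

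None of the other 8 genes from squalene to cholesterol was called. Of the 10 genes 4 had a positive log2 fold change, with Dhcr7, the last reductase of the pathway, the highest at 0.20. For Sqle it was -0.21 ± 0.09 (adjusted p = 0.181). The summed level of the 10 was 259.9, 260.0 and 272 CPM in Early and 228, 243 and 255 in Late, without overlap, and without TMM factors they overlapped (254.75 to 269 and 232 to 255.06 CPM). Tm7sf2, one of the 10, shares 12.1% of its exon bases with Vps51 on the same strand, which had 59314 counts over all samples to its 6055, so its level is uncertain.

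Upstream, none of the 7 genes from mevalonate to squalene and none of the 3 of acetyl-CoA supply was called. Hmgcs1, the synthase that makes HMG-CoA, had 47.1, 56.8 and 60.7 CPM in Early and 43.4, 44.6 and 50.7 in Late. The groups overlapped (log2 fold change -0.25 ± 0.11, adjusted p = 0.199). Acly stood at 218, 226 and 239 CPM in Early and at 219, 227 and 223 in Late, and the log2 fold change was -0.03 ± 0.07 (adjusted p = 0.837).

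Scap, the escort of SREBP, was the member that was called in both comparisons, and it was higher in both. It stood at 50.2, 47.9 and 47.1 CPM in Early and at 60.1, 64.5 and 66.4 in Late, with no overlap. The log2 fold change was 0.40 ± 0.08 (adjusted p = 0.0114), and without Early replicate 2, Late replicate 2 or Late replicate 3 the adjusted p was 0.0694, 0.0734 and 0.0787. A noncoding transcript on the opposite strand, 5830462I19Rik, overlaps 13.2% of the exon bases of Scap but had 267 counts over the 12 samples against 49082.

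Insig2, which retains SCAP in the endoplasmic reticulum, lay close to the threshold in the opposite direction. It had 37.4, 33.96 and 37.9 CPM in Early and 27.4, 30.03 and 29.5 in Late, without overlap (log2 fold change -0.33 ± 0.09, adjusted p = 0.0501). Srebf2 itself stood at 154, 147 and 145 CPM in Early and at 166, 169.8 and 168 in Late. These did not overlap either, with a log2 fold change of 0.17 ± 0.07 (adjusted p = 0.134).

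The fatty acid genes were not called between the stages. Fasn had 90.1, 92.7 and 101 CPM in Early and 101, 116 and 121 in Late. The lowest Late sample lay just above the highest Early sample, and the log2 fold change was 0.25 ± 0.09 (adjusted p = 0.106). Fads1 had 71.5, 75.2 and 85.7 CPM in Early and 90.1, 95.7 and 94.8 in Late, without overlap (0.27 ± 0.08, adjusted p = 0.0782). Fads2 had 18.2, 14.6 and 14.7 CPM in Early and 8.00, 11.9 and 12.6 in Late, also without overlap but lower (-0.55 ± 0.18, adjusted p = 0.0870). DESeq2 called Fads1, Fads2 and Insig2 (adjusted p = 0.0412, 0.0202 and 0.0159).

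Over all members 4 were higher and 6 lower at an unadjusted p under 0.05, 10 of 33 where 24.5% of all genes tested passed it. The Early and Late samples did not overlap for 13 of the 33 (39.4%), 6 higher and 7 lower in Late, against 31.2% of all genes tested. Late replicate 1 was the lowest of the Late samples for 29 of the 33 members, among them Scap, Srebf2, Fasn and Fads1 as well as Scd1, Fads2, Cyp51 and Msmo1, and it was also the lowest for B16 melanoma transcripts. The same count was not made over all genes tested, so whether it is particular to these members is not known.

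**Figure D3:**
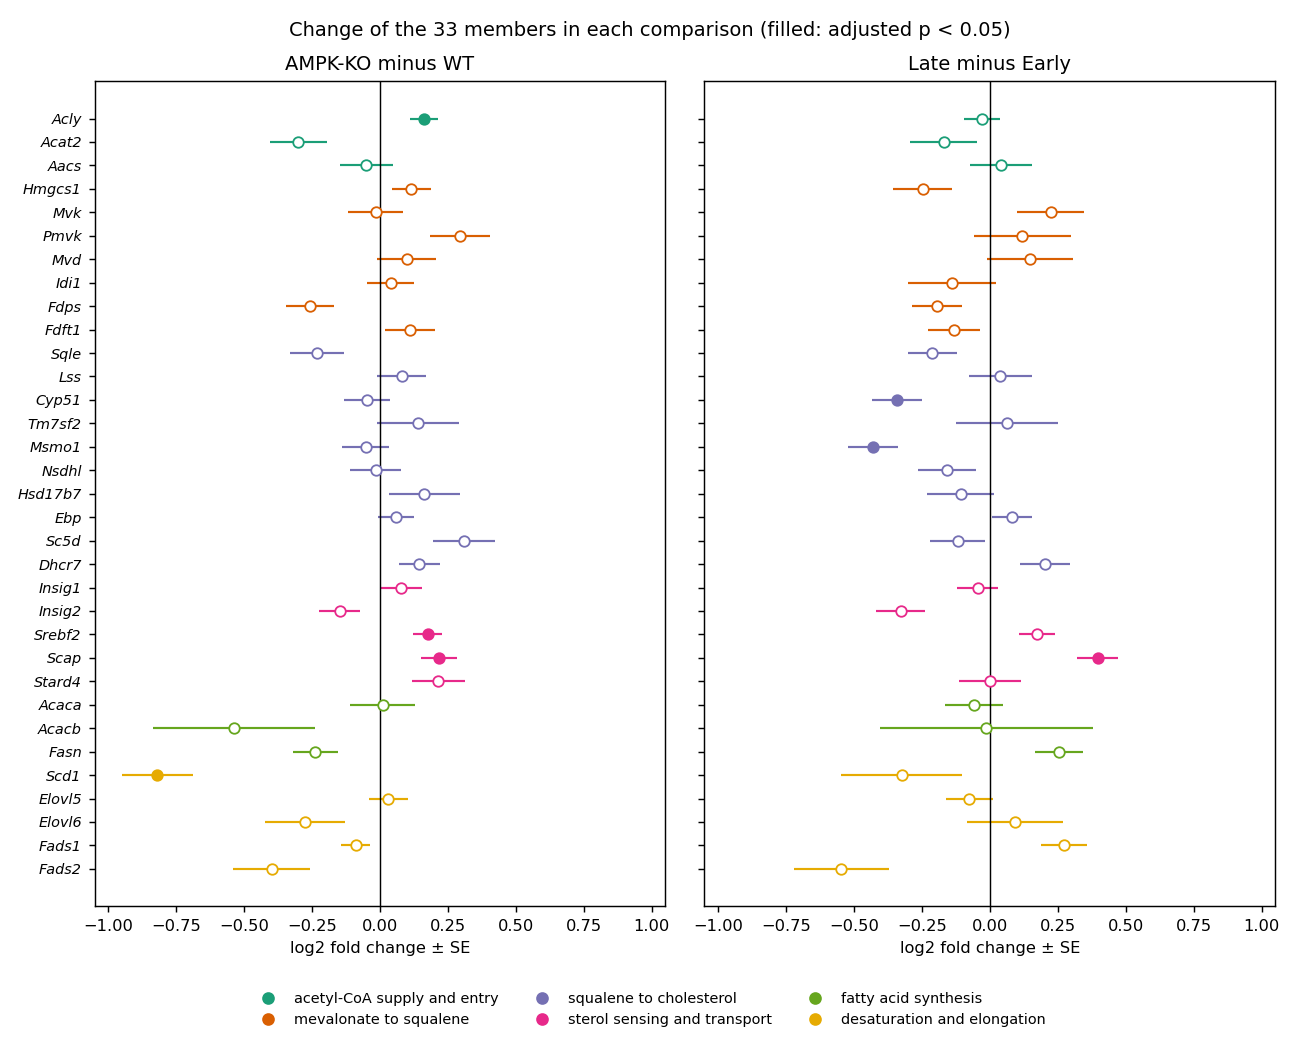
Log2 fold change of each of the 33 members (points) with its SE (bars), for AMPK-KO minus WT (left) and Late minus Early (right), colored by role. Filled points had an adjusted p under 0.05, and these are Acly, Srebf2, Scap and Scd1 on the left and Cyp51, Msmo1 and Scap on the right.

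Whether a member responded differently in the comparisons was tested as the difference of the effects, AMPK-KO minus WT less Late minus Early, in 1 fit of the 12 samples. The comparisons share no samples. Fasn and Fads1 were called, 6.06% of the members, where 12.6% of the 19073 genes tested were. Both had a negative log2 fold change in AMPK-KO and a positive one in Late, and neither passed the test in either comparison alone. The difference was -0.48 ± 0.13 for Fasn (adjusted p = 0.0204) and -0.35 ± 0.10 for Fads1 (adjusted p = 0.0318). The WT samples of Fads1 had 86.5, 86.0 and 89.1 CPM and the AMPK-KO samples 84.9, 77.7 and 83.2. The values of Fasn are given above.

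These differences rested on single libraries in part. For Fasn the adjusted p was 0.0521 without WT replicate 1, 0.0523 without Early replicate 2 and 0.0634 without Late replicate 3. For Fads1 it passed 0.05 without WT replicates 1 or 3, AMPK-KO replicate 2, Early replicate 2 or Late replicates 2 or 3 (0.0524, 0.0689, 0.0783, 0.0798, 0.0708 and 0.0762). The difference was not called for Scd1 (-0.49 ± 0.29, adjusted p = 0.326), Scap (-0.17 ± 0.10, adjusted p = 0.305), Srebf2 (0.01 ± 0.08, adjusted p = 0.955) or Cyp51 (0.30 ± 0.13, adjusted p = 0.143). Msmo1 lay near the threshold (0.39 ± 0.12, adjusted p = 0.0507), and with DESeq2 both Msmo1 and Sc5d were called as well (adjusted p = 0.0145 and 0.0290). Of the 33 members 19 had the same sign in both comparisons (57.6%), 9 higher and 10 lower, as did 53.5% of the 16812 genes tested in both.

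**Figure D4:**
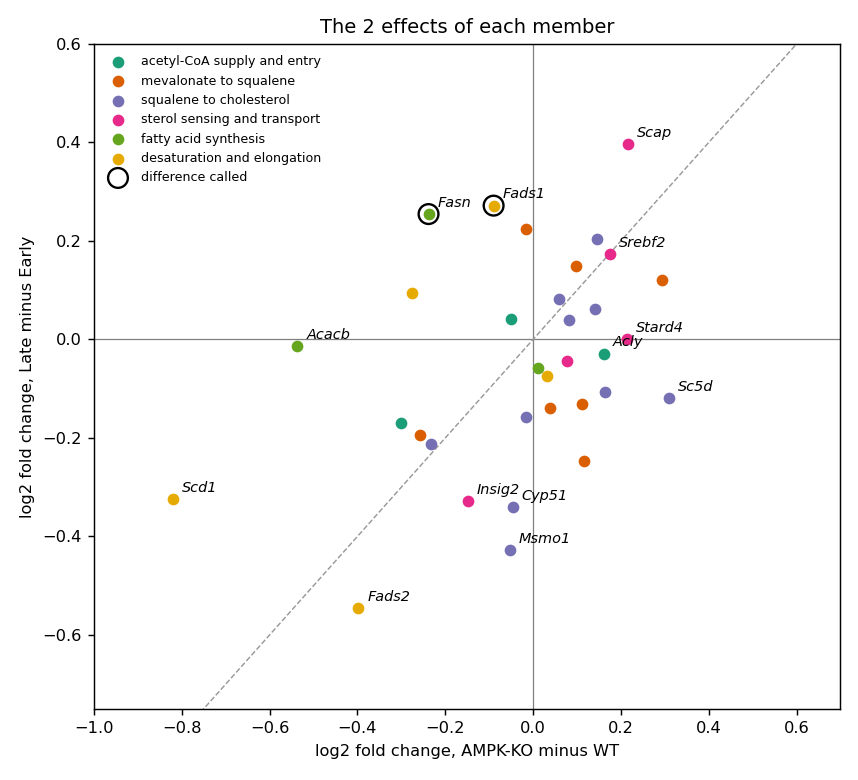
Log2 fold change of each member in AMPK-KO minus WT (horizontal) and in Late minus Early (vertical), colored by role, with the line of equal effects dashed. Fasn and Fads1, circled, are the members whose effects were called different, with negative values on the horizontal axis and positive values on the vertical one.

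Summed by role, the sensing and transport genes were the role whose samples did not overlap in either comparison, with or without TMM factors. Their sum was higher by 9.54% in AMPK-KO and by 8.54% in Late, with Srebf2 the most abundant of the 5 and Insig2 at a negative log2 fold change in both. In AMPK-KO 4 of the 5 had a positive log2 fold change, and in Late 3 of the 5 (median 7.1e-06). These sums, which hold the rises of Srebf2 and Scap, do not show a rise of the other genes. Acetyl-CoA supply was higher by 8.66% in AMPK-KO without overlap, a sum in which Acly makes up most of the level, and overlapped between the stages. Over all 33 members the WT samples summed to 1123 ± 11.02 CPM and those of AMPK-KO to 1149 ± 33.9, with 1364 ± 47.0 in Early and 1367 ± 62.4 in Late (SD, n = 3), which overlapped in both comparisons.

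**Figure D5:**
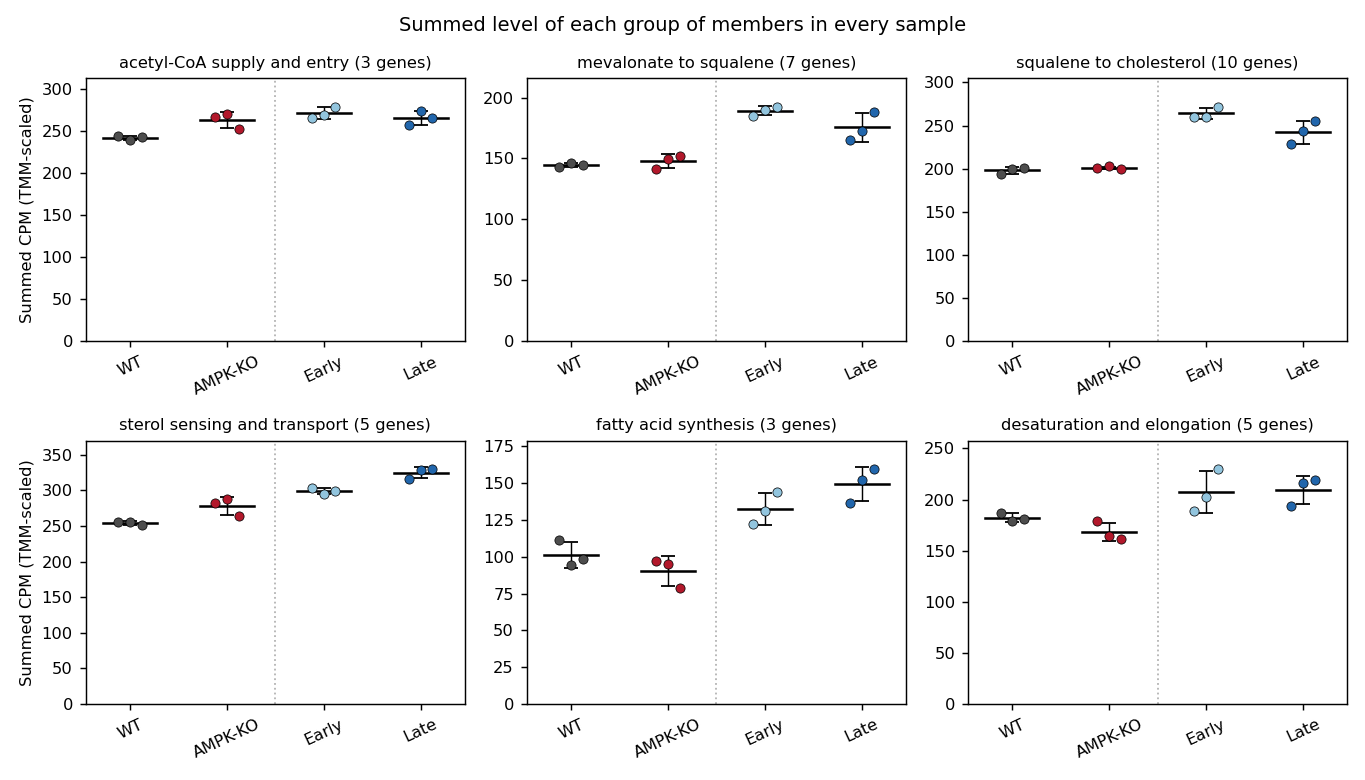
Summed TMM-scaled CPM of the members of each role, 1 point per sample, with means (lines) and 1 SD (bars) of 3 samples in each of the 4 groups. The sum of the sensing and transport genes is higher in AMPK-KO than in WT and in Late than in Early without overlap. The sum of the mevalonate genes overlaps in both.

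Genes around these pathways were read from the same fits. Of 57 genes of isoprenoid branches, SREBP processing and sterol handling, other lipogenic steps and glycerolipids, 55 were tested. In AMPK-KO 9 of the 55 were higher and 10 lower, where 1978 (11.3%) and 1715 (9.78%) of the 17532 genes tested were. In Late 2 of the 55 were higher and 4 lower, where 759 (4.31%) and 860 (4.88%) of the 17630 genes tested were. In AMPK-KO the 20 other lipogenic genes tested held 3 that rose, the acyl-CoA synthetases Acsl1, Acsl5 and Acsl4 (log2 fold change 0.65, 0.28 and 0.29), and 7 that fell, led by Me1 (-0.87 ± 0.11, adjusted p = 2.9e-04), Hacd2 (-0.36) and Tecr (-0.25). Me1, the malic enzyme that supplies NADPH to fatty acid synthesis, stood at 20.7, 19.6 and 17.5 CPM in WT and at 10.04, 11.8 and 9.68 in AMPK-KO. Elovl7, named here after its value was seen, was the gene of these lists that passed a log2 fold change of 1 (-1.28 ± 0.39, adjusted p = 0.0411). Its level was low, at 1.22, 0.969 and 1.73 CPM in WT and 0.339, 0.760 and 0.508 in AMPK-KO.

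Of the 12 glycerolipid genes tested, 5 rose in AMPK-KO, among them the lipase Lipe (0.64) and the triglyceride synthases Dgat2 (0.76) and Dgat1 (0.40). Another 2 fell, the lipid droplet protein Plin2 (-0.52) and Agpat3 (-0.25). Of the isoprenoid genes 1 of 13 was called, Nus1 (-0.21), and of sterol handling 1 of 10, Npc2 (0.22), which carries cholesterol out of lysosomes. Among 7 targets or forms of the sterol receptor LXR, Abcg1 (0.55), Nr1h3 (0.40) and Nr1h2 (0.22) rose and Apoe (-0.47) fell. Beside these counts, 11.3% of all genes tested were called higher in AMPK-KO and 9.78% lower.

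In Late, the lipogenic genes Acsl1 (0.53) and Acsl5 (0.32) rose, and Scd2 (-0.61 ± 0.09, adjusted p = 0.00220) and Me1 (-0.66 ± 0.18, adjusted p = 0.0485) fell, as did Gpat3 (-0.53) and Plin2 (-0.33) among the glycerolipid genes. The call of Me1 was lost in each of the 6 fits without 1 library, and in Late replicate 1 it stood at 10.8 CPM against 18.3 and 17.3. Scd2, the desaturase closest to Scd1, had 243, 249 and 281 CPM in Early and 154, 177 and 177 in Late, without overlap. No isoprenoid or sterol handling gene was called. The sterol exporter Abca1 was the LXR target called (-0.59).

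Transcripts listed as markers of other cells moved with the groups. These bulk samples do not assign them to those cells or to the macrophages. Of all genes tested 11.3% were called higher and 9.78% lower in AMPK-KO, and 4.31% and 4.88% in Late. Fewer cells of a type and less RNA per cell cannot be told apart here. Of 6 B16 melanoma markers 5 were lower in AMPK-KO (summed level 958 to 962 CPM in WT, 647 to 690 in AMPK-KO) and 5 lower in Late (1609 to 1765 in Early, 737 to 1162 in Late, lowest in replicate 1). All 4 fibroblast genes were higher in AMPK-KO (568 to 614 against 736 to 817 CPM) and 3 lower in Late (795 to 874 against 390 to 551). The 5 T cell, 4 NK cell and 5 conventional dendritic cell markers were higher in AMPK-KO, summing to 56.7 to 72.4 against 127 to 131, 25.96 to 34.2 against 76.1 to 82.0 and 45.8 to 51.3 against 76.7 to 84.9 CPM.

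In Late, 3 NK cell markers were lower (60.1 to 70.5 against 35.3 to 39.2 CPM), 2 T cell markers higher (105 to 113 against 129 to 156), 1 dendritic cell marker lower and 2 B cell markers higher (33.6 to 36.9 against 52.0 to 74.0). In AMPK-KO, 3 B cell markers were lower and 1 higher (27.7 to 29.1 against 19.9 to 22.0), 3 neutrophil markers were higher (17.9 to 19.7 against 29.0 to 30.2) and in Late 2 were lower (43.5 to 51.0 against 30.5 to 41.8), with Ly6g at 0 in every WT and AMPK-KO sample. Endothelial (Pecam1 and Kdr higher, Cdh5 lower), erythroid (2 lower) and plasmacytoid dendritic cell markers (Bst2 alone, lower) also changed in AMPK-KO. In Late 1 endothelial and 1 erythroid marker were lower. Of 7 macrophage markers 2 were higher and 1 lower in AMPK-KO and 1 (Lyz2) lower in Late.

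Cell division genes also moved with the groups. All 13 proliferation genes were higher in Late (1550 to 1671 against 2122 to 2212 CPM), where 4.31% of all genes tested were. In AMPK-KO 9 of the 13 were lower (1692 to 1709 against 1430 to 1494), where 9.78% of all genes tested were. Those with the smallest adjusted p were the MCM helicase genes Mcm5, Mcm7 and Mcm2 (0.60, 0.60 and 0.53) in Late. In AMPK-KO they were Cdk1 (-0.51), Ccnb1 (-0.36) and Mcm2 (-0.26). The study's methods identify TAMs by CD45, CD11b and F4/80 without Ly6C and Ly6G, a gate that would leave out tumor cells, fibroblasts and most lymphocytes, though its legends give Ly6C and Ly6G differently. The part of tumor cell, fibroblast, lymphocyte and dividing cell transcripts in the changes of Scd1, Cyp51, Msmo1 and the other members was not tested.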

How the data were processed

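TAMs were profiled by bulk RNA-seq in 12 samples, 3 each of WT, AMPK-KO, Early and Late. The authors mapped reads with HISAT2, quantified them with featureCounts and deposited raw counts per gene in 1 table per experiment. The labels name mm10 and GRCm38. Tool versions, strand and multiply mapped reads are not given in the sources used here. The members and lists were chosen with earlier results of these data known.

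Each table was fitted on its own with the edgeR 4.0.16 quasi-likelihood test in R 4.3.3 (filterByExpr, TMM, no covariates), with Benjamini-Hochberg adjustment over all genes tested and a call at an adjusted p under 0.05. SEs are those implied by the F statistic. CPM were scaled by TMM. All 33 members are described by role, with per-sample values for those called, and from each other list up to 3 called genes per direction with the smallest adjusted p. Markers were read as whole lists. Replicates differed beyond sampling noise, so none was counted as a copy. Of 55401 identifiers 54349 matched GENCODE M21 (GRCm38) with their version, as did 32 members, which gave positions and exon lengths. Promoters came from RefSeq (GRCm38.p6) and matched 27 members. The scripts were tested on simulated data. The alternatives took DESeq2 1.42.0 in place of edgeR, RLE or upper-quartile factors in place of TMM, and all genes with any count or those with 10 or more in each sample in place of the filter, and added the replicate number as a block, leaving out each library, a fold limit, an unadjusted p, and CPM without TMM.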

Additional observations from a re-analysis of the deposited data

How the results depend on the processing

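Counts of called members moved with many settings, and the adjusted p of each call but that of Scd1 in AMPK-KO lay above 0.01. For AMPK-KO against WT, upper-quartile factors called 1 member higher and 2 lower, DESeq2 3 lower, no filter 1 member in all and 0 higher, and the replicate block 3 lower (Fdps and Fasn added, adjusted p 0.0320 and 0.0270, and Acly lost, 0.0508). The replicate numbers did not pair the samples (correlations of same-numbered deviations -0.0039 to 0.042, with the own number the best match in 1 of 6 cases), and the block gave 5 members in AMPK-KO, 3 in Late and 2 in the difference. Without 1 library there were 1 to 7 members called, 0 to 5 higher and 1 to 3 lower, among 2414 to 4039 genes, and 9 to 19 of the other pathway genes. An absolute log2 fold change above 1 left 0 members (0 higher, 0 lower), 585 genes and 1 other pathway gene, and an unadjusted p gave 11 (5 higher, 6 lower) and 5715 genes.

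For Late against Early, DESeq2 called 6 members (2 higher, 4 lower), 2447 genes and 11 other pathway genes, and no filter 1 lower and 936 genes. Without 1 library there were 0 to 5 called, 0 to 2 higher and 0 to 3 lower, among 653 to 2835 genes, and 1 to 15 other pathway genes. The fold limit left 0 members (0 higher, 0 lower), 329 genes and 0 other pathway genes, and an unadjusted p gave 10 (4 higher, 6 lower), 4313 genes and 21 other pathway genes. For the difference of the effects, 1 member was called higher with RLE factors or with 10 counts in every library, DESeq2 called 4 (2 higher), and leaving out a library gave 0 to 4 (0 to 2 higher, 0 to 2 lower) among 1793 to 3375 genes. The cause was not tested.

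Single changes were followed across settings for members called in any test or with an unadjusted p under 0.05 in that test, and among these a sign turned in 4 cases, each when a library was left out. Cyp51 (-0.10 to 0.012) and Msmo1 (-0.10 to 0.027) turned in AMPK-KO, Acly (-0.056 to 0.0056) in Late and Srebf2 (-0.030 to 0.030) in the difference. The members' median log2 fold change in Late was -0.13 without Early replicate 1 and -0.015 without Early replicate 3. Acacb, with 69 counts in its shallowest sample, had the widest errors (SE 0.30 and 0.39). Summed levels over all members without TMM factors moved by less than 1 SD. Of the alternatives for the other genes named by rule, 332 kept their call and 40 lost it, none reversed.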
